A study of Mus musculus with 6 samples.

Results

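Gdf3 and 9 other genes of the transforming growth factor β (TGF-β) superfamily and its signaling chain (Gdf15, Tgfb1, Tgfb2, Tgfb3, Inhba, Bmp2, Tgfbr1, Tgfbr2 and Smad7) were examined in tumor-associated macrophages (TAMs). All 10 were found by symbol among the 55421 genes of the count table, and all 10 passed the expression filter that left 14469 genes for testing. Gdf3 was chosen by its lower level in the Pdcd1f/fLysMcre group of these same libraries, so its difference is given here as a description with no test, while the other 9 stand beside it as ligands, receptors and an inhibitor of the same family. The TAMs, sorted as live CD45+CD11b+F4/80+Ly6G- cells, came from tumors of M17 cells, a fibrosarcoma line that the methods call MC17-51, on day 15 after implantation into mice aged 8 to 12 weeks. The 3 Pdcd1f/f libraries came from control mice with the floxed Pdcd1 gene, which encodes PD-1, and no Cre. The 3 Pdcd1f/fLysMcre libraries came from mice with the same floxed gene and Cre under the lysozyme promoter, which deletes in myeloid cells at large and not in macrophages alone. The labels do not say whether a library holds 1 mouse or several (each held RNA of male and female cells, as given below), and p-values then measure only the spread between these libraries.

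Ligands of the TGF-β superfamily are secreted dimers cut from larger precursors. They bring together type I and type II receptor kinases, and the receptors phosphorylate SMAD proteins that enter the nucleus with SMAD4. TGF-βs, activins, GDFs and BMPs use different receptor pairs, and secreted antagonists and inhibitory SMADs such as SMAD7 hold the signal back. In macrophages TGF-β is known for dampening inflammatory activation, and tumor macrophages are a known source of it. GDF3 is a ligand of the Nodal and BMP branch that macrophages also make.

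The stretches just upstream of the start sites are shown for 3 ligand genes that stand for the different outcomes, since RefSeq promoter windows matched 6 of the 10 genes (Tgfb1, Tgfb2, Inhba, Gdf15, Tgfbr1 and Tgfbr2). Each is the 100 bases before the RefSeq start on GRCm38.p6, 5′ to 3′ on the strand of the gene, at chr7:25686902-25687001 on the plus strand for Tgfb1, chr1:186705990-186706089 on the minus strand for Tgfb2 and chr13:16011751-16011850 on the plus strand for Inhba. Capitals mark exact matches, on either strand, to 3 motifs, the TATA box TATAAA, the GC box GGGCGG and the E-box CACGTG.
Tgfb1: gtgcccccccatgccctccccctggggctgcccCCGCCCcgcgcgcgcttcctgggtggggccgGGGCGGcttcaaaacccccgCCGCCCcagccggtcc
Tgfb2: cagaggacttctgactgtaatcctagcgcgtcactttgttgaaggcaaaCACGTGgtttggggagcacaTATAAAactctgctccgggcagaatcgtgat
Inhba: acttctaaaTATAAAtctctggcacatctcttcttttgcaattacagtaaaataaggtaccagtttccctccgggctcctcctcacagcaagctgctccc

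The Tgfb1 stretch was 82% G and C and held 3 GC boxes. The Tgfb2 stretch was 49% G and C and held a TATA box beginning 31 bases upstream of the start and an E-box beginning 51 bases upstream, and the Inhba stretch was 44% G and C with a TATA box beginning 91 bases upstream. Of all 32851 RefSeq windows cut to this length, 5.56% held TATAAA, 24.7% held GGGCGG and 3.17% held CACGTG, and the median was 55% G and C. These matches describe the letters only.

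Library totals ranged from 41833823 to 51417209 counts, and 3 counts correspond to at most 0.0717 CPM (counts scaled to the library total), which covers counting error only. Lyz2, the gene into which Cre is inserted, separated the genotypes as labelled (207974 to 225226 against 405 to 465 normalized counts), while Pdcd1 had 10, 12 and 15 counts in Pdcd1f/f libraries and 7, 16 and 11 in Pdcd1f/fLysMcre libraries, which do not show the deletion since counts are per gene. Pdcd1f/fLysMcre TAMs thus differed from the controls in Cre and in Lyz2 as well as in the targeted Pdcd1. Effects of these cannot be told apart here. All 9 macrophage markers (Adgre1, Itgam, Csf1r, Cd68 and Mrc1 among them) were abundant. Their summed normalized counts were 427527 to 453217 in Pdcd1f/f and 359637 to 364036 in Pdcd1f/fLysMcre libraries, and 5 of the 9 fell in edgeR's test, beside 3.01% of all genes lower. The count was 0 of 9 without Pdcd1f/f replicate 2 or without Pdcd1f/fLysMcre replicate 1, 3 without Pdcd1f/f replicate 3 and 2 without Pdcd1f/fLysMcre replicate 2, in fits that called 1.51%, 1.51%, 2.38% and 2.5% of all genes in either direction. The summed normalized counts ranged from 3084 to 3329 against 2943 to 3238 for 8 fibroblast and tumor markers, 4096 to 4444 against 3719 to 4040 for 6 neutrophil markers with Ly6g at no more than 3 counts, 1870 to 1997 against 1525 to 1650 for 5 endothelial markers, 221 to 300 against 285 to 359 for 5 dendritic cell markers and 3.29 to 21.2 against 15.7 to 26.7 for 6 T and B cell markers. Of the neutrophil genes only Mmp8 was past the threshold (edgeR, log2 fold change −0.48, adjusted p = 0.0039), none of the 3 tested dendritic cell genes passed (edgeR, DESeq2 or limma, with 2 under an unadjusted p of 0.05 in edgeR), and the T and B cell genes were under the expression filter. Normalized counts of Uty, Kdm5d, Ddx3y and Eif2s3y, which lie on the Y chromosome, summed to 1545 to 1914 in the controls and 6267 to 7233 in Pdcd1f/fLysMcre libraries. Xist, transcribed from the inactive X chromosome of female cells, had 17318 to 26511 and 8529.5 to 13137 normalized counts, so every library held RNA of both male and female cells, and the sex mix of the libraries and the genotype cannot be told apart. In Pdcd1f/f replicate 1 and Pdcd1f/fLysMcre replicate 2 the deviation of a gene from the mean of its genotype ran against its GC content (Spearman rho of −0.579 and −0.490 across 14454 genes, which are not independent replicates), and it ran with GC content in the other 4 libraries (rho of 0.117 to 0.511). Fewer cells of a type and less RNA per cell cannot be told apart in these bulk libraries.

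Gdf3, a ligand of the Nodal and BMP branch, lies on chromosome 6 of GRCm38 from 122605403 to 122610087 on the minus strand. Its normalized counts were 1595, 1797 and 1707 in the controls, given here and below in the order of replicates 1 to 3, whereas the 3 Pdcd1f/fLysMcre libraries held 518, 609 and 566. Every Pdcd1f/fLysMcre library lay below every Pdcd1f/f library, with little spread inside either genotype. The means were 1699.7 ± 101 and 564 ± 45.3 normalized counts (SD, n = 3 each), 3.01-fold lower in Pdcd1f/fLysMcre TAMs, and the fitted log2 fold change was −1.59 with a standard error of 0.09. That value, by which the gene was picked, was the 29th largest fall among the 14469 fitted genes, and dropping any 1 of the 6 libraries kept it between −1.65 and −1.53.

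None of the 3 tested protein-coding genes around Gdf3 fell with it. Apobec1, an RNA-editing cytidine deaminase whose gene body ends 2958 bases from that of Gdf3, had a mean of 11459 ± 177 normalized counts in the controls and of 11425 ± 266 in the Pdcd1f/fLysMcre group (SD, n = 3 each; edgeR, log2 fold change −0.0023, 95% interval −0.13 to 0.12, adjusted p = 0.984). Dppa3, a germline and early embryo gene 16322 bases away on the other side, rose from a mean of 305 ± 10.8 to one of 425 ± 47.9 normalized counts (SD, n = 3 each; edgeR, log2 fold change 0.48, standard error 0.11, adjusted p = 0.0349). Its call was kept without Pdcd1f/f replicate 1 (adjusted p = 0.0212) or Pdcd1f/fLysMcre replicate 3 (0.0445) and lost without each of the other 4 libraries (edgeR, adjusted p of 0.11 to 0.13). Slc2a3, a glucose transporter 117721 bases away, had a log2 fold change of 0.34 (edgeR, standard error 0.17, adjusted p = 0.240), and Nanog, Mfap5 and Rimklb, which also lie within 150 kb, had at most 7 counts in any library and were not tested.

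Over the 6 libraries, the 5 genes with a mean of at least 100 normalized counts whose log2 levels followed that of Gdf3 most closely were Fads1 (Pearson r = 0.999), a fatty acid desaturase, Saa3 (0.999), an acute-phase protein, Fcgr3 (0.999), an activating Fc receptor, Jaml (0.998), a leukocyte adhesion molecule, and Hebp1 (0.997), a heme-binding protein. All 5 had lower means in Pdcd1f/fLysMcre TAMs, from 5641 to 1954 for Saa3 and from 24209 to 17654 for Fcgr3. The 6 points fall into 2 genotypes, and 560 of 10601 genes had an r over 0.9, so this likeness is a description. By Spearman rank 22 genes had the same order of libraries as Gdf3.

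**Figure D1:**
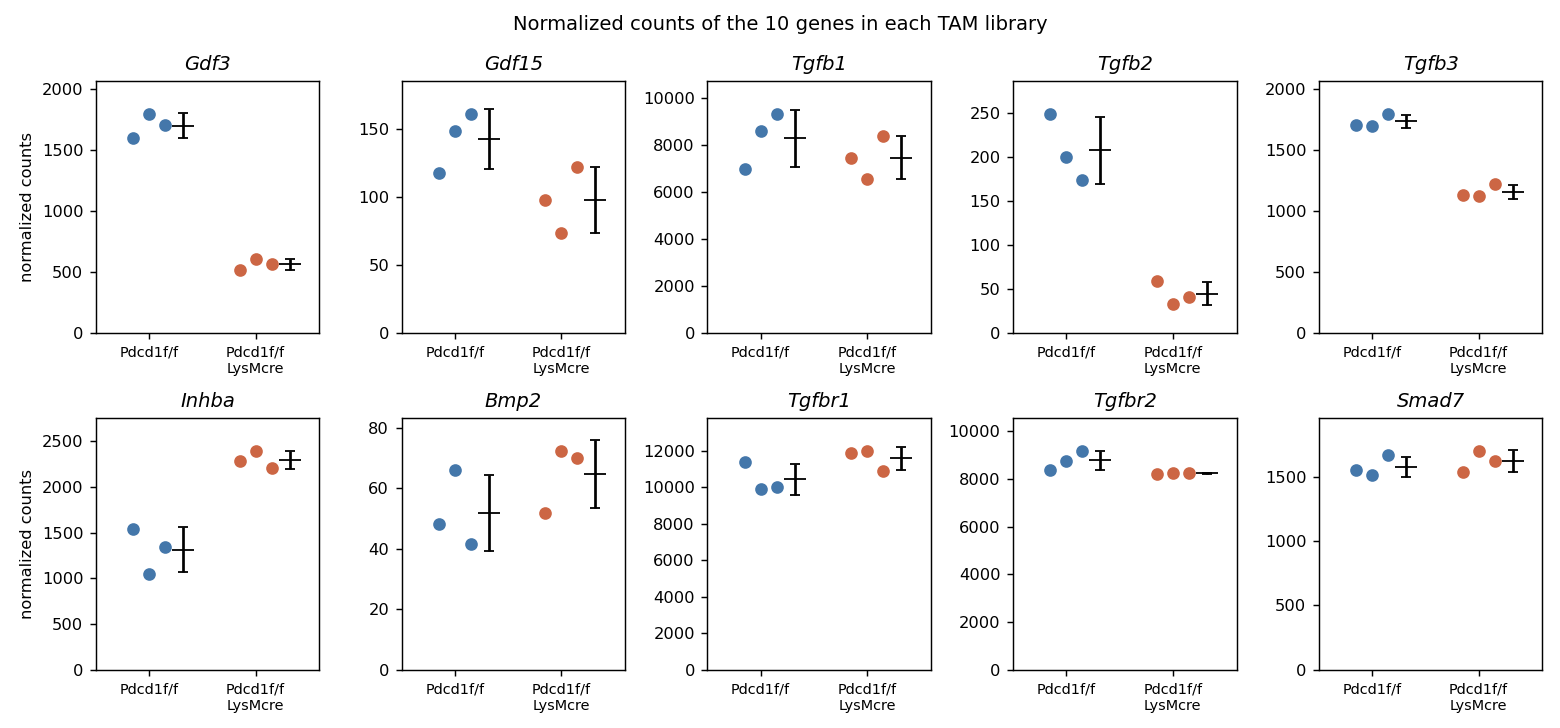
Normalized counts (vertical axes, each from 0) of the 10 genes in the 3 Pdcd1f/f (blue) and 3 Pdcd1f/fLysMcre (orange) libraries, replicates 1 to 3 from left to right, with the mean and SD in black. For Gdf3, Tgfb2 and Tgfb3 all Pdcd1f/fLysMcre points lie well below the Pdcd1f/f points, for Inhba all lie above, and for Gdf15, Tgfb1, Bmp2, Tgfbr1 and Smad7 the groups overlap.

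Among the other 9 genes, Tgfb2 and Tgfb3 fell and Inhba rose in Pdcd1f/fLysMcre TAMs, while Tgfb1, Gdf15, Bmp2, both TGF-β receptors and Smad7 did not pass the test. The question of this comparison was whether other ligands and receptors differ beside Gdf3. In edgeR's test 3 of the 9 were past an adjusted p-value of 0.05, beside 5.43% of all 14469 genes, with 2 lower (3.01% of all genes) and 1 higher (2.42%). The 9 were listed with results of these libraries known, so nothing is read from that share.

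Tgfb2 encodes the TGF-β isoform best known from development and stroma. It lies on chromosome 1 from 186622792 to 186705989 on the minus strand. The controls had 249, 200 and 174 normalized counts, whereas the Pdcd1f/fLysMcre libraries had 59.2, 33.3 and 41.3. The 2 genotypes were far apart, at a level that rested on 35 to 64 raw counts in the Pdcd1f/fLysMcre libraries. The means were 208 ± 38.3 and 44.6 ± 13.3 (SD, n = 3 each), 4.66-fold lower, with a log2 fold change of −2.22 (edgeR, standard error 0.23, adjusted p = 4.8e-04). Dropping any 1 library left the call in place, with log2 fold changes of −2.48 to −2.04. Markers of other cells moved in part with it. The stromal collagen gene Col1a2 fell from a mean of 132 ± 12.7 to one of 65.6 ± 12.03 normalized counts (SD, n = 3 each; edgeR, log2 fold change −1.001, adjusted p = 0.0121, lost without Pdcd1f/f replicate 3 at 0.0550 and without Pdcd1f/fLysMcre replicate 1 at 0.0595). It was the only one of the 6 tested fibroblast and tumor markers past the threshold, the median log2 fold change of the 6 was −0.24, and Dcn, the most abundant of them per length, had one of 0.03. Of the 3 tested endothelial markers Pecam1 fell (edgeR, log2 fold change −0.62, adjusted p = 0.0034) and Cdh5 and Kdr had log2 fold changes of −0.0090 and 0.02. The part of such cells in the fall of Tgfb2 was not tested.

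Tgfb3, the third isoform, lies on chromosome 12 from 86056745 to 86079041 on the minus strand. Control libraries held 1711, 1699 and 1798 normalized counts, against 1129.7, 1123 and 1220.2 in Pdcd1f/fLysMcre libraries. The libraries of a genotype differed from each other far less than the genotypes did. The means were 1736 ± 54.1 and 1158 ± 54.3 (SD, n = 3 each), 1.5-fold lower, a log2 fold change of −0.58 (edgeR, standard error 0.07, adjusted p = 0.0014) that held its call whichever library was dropped (−0.63 to −0.56). Tgfb3 overlaps Ttll5 on the other strand, and the strand setting of the counting is not given in the sources used here, so part of its counts could belong to Ttll5, which had 4137 counts in all libraries together against 8649 for Tgfb3 and a log2 fold change of 0.12 (edgeR, adjusted p = 0.469).

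Tgfb1 encodes the main isoform of immune cells and lies on chromosome 7 from 25687002 to 25705077 on the plus strand. Its control values were 6971, 8606 and 9336 normalized counts, and its Pdcd1f/fLysMcre values were 7461, 6578 and 8391. The groups overlapped and the lowest library of each genotype was one of the 2 that ran against GC content. The log2 fold change was −0.15 with a 95% interval of −0.40 to 0.10 (edgeR, adjusted p = 0.450), so a fall of Tgfb1 as large as the fitted fall of Tgfb3 lay outside the interval. Without Pdcd1f/f replicate 1 it was −0.27 (edgeR, adjusted p = 0.0465).

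Per length, Tgfb1 made up most of the transcripts of the 3 isoforms in both genotypes. Its share of their summed TPM (a transcript level made from counts divided by merged exon length and scaled to the library) was 74.8% ± 2.80 in the controls and 80.8% ± 1.26 in the Pdcd1f/fLysMcre group (SD, n = 3 each), with library ranges of 71.6% to 76.7% and 79.4% to 81.9%. The share of Tgfb3 was 23.5% ± 2.30 and 18.8% ± 1.29, and that of Tgfb2 was 1.67% ± 0.51 and 0.42% ± 0.12 (SD, n = 3 each). The ranges of the genotypes did not overlap for any of the 3 shares, which follow from the same counts as the differences above. The shares depend on the length used. With the longest transcript, an alternative added after the data were seen, the control and Pdcd1f/fLysMcre means were 85.2% and 89.2% for Tgfb1, 13.7% and 10.6% for Tgfb3 and 1.10% and 0.27% for Tgfb2, and the ranges again did not overlap.

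Inhba, the subunit of activin A, lies on chromosome 13 from 16011851 to 16031621 on the plus strand and moved the other way. The level was 1542, 1051 and 1343 normalized counts among controls, while Pdcd1f/fLysMcre TAMs gave 2283, 2398 and 2204. All 3 Pdcd1f/fLysMcre libraries were higher, and the spread was wider among the controls. The means were 1312 ± 247 and 2295 ± 97.4 (SD, n = 3 each), 1.75-fold higher, with a log2 fold change of 0.81 (edgeR, standard error 0.12, adjusted p = 0.0035). Whichever library was dropped, it lay from 0.67 to 0.93 and kept its call (edgeR, adjusted p of 5.2e-05 to 0.0302). Correcting for GC content and transcript length by offsets gave 0.70 (edgeR, adjusted p = 5.7e-05).

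Gdf15, a distant family member made under cell stress, was counted at 118, 149 and 161 (normalized) in the controls, against 98.1, 73.3 and 122 in Pdcd1f/fLysMcre libraries. The highest Pdcd1f/fLysMcre library lay above the lowest control. The log2 fold change was −0.54 (95% interval −0.997 to −0.0783), and the adjusted p of edgeR was 0.148, not past the threshold over all genes, and 0.0384 without Pdcd1f/f replicate 1. Gfral, its receptor in the brainstem, had no count in any library, which allows at most 0.0717 CPM, and Ret, the partner of Gfral, had 36 to 56 counts.

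Bmp2, a bone morphogenetic protein, stood at 48.2, 65.9 and 41.6 normalized counts in the controls, whereas the Pdcd1f/fLysMcre libraries had 51.8, 72.4 and 69.8. These groups overlapped. The log2 fold change was 0.32 with a 95% interval of −0.22 to 0.86 (edgeR, adjusted p = 0.448), from 38 to 76 raw counts per library. It lay between 0.19 and 0.52 when 1 library was dropped (edgeR, adjusted p of 0.38 to 0.79).

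The receptors of TGF-β were among the most abundant of the 10 genes and differed little. Tgfbr1, the type I receptor, stood at 11399.8, 9908 and 9993 normalized counts in the controls, against 11859.7, 12002 and 10876 in Pdcd1f/fLysMcre libraries. The groups overlapped through Pdcd1f/f replicate 1. Its log2 fold change was 0.15 (95% interval −0.0093 to 0.31; edgeR, adjusted p = 0.229). It was 0.21 without Pdcd1f/f replicate 1 (edgeR, adjusted p = 0.0332) and 0.03 with the GC and length offsets (edgeR, adjusted p = 0.615). Tgfbr2, the type II receptor that binds the ligand first, stood at 8385, 8767 and 9192 normalized counts in the controls, against 8223, 8271 and 8233 in Pdcd1f/fLysMcre libraries. The 3 Pdcd1f/fLysMcre libraries lay just below the controls, close together. The log2 fold change was −0.09 with a 95% interval of −0.22 to 0.04 (edgeR, adjusted p = 0.387).

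Smad7, which blocks the type I receptor and is itself induced by TGF-β, gave control values of 1551, 1516 and 1669 normalized counts, and Pdcd1f/fLysMcre values of 1541, 1706 and 1627. The groups overlapped almost fully. The log2 fold change was 0.04 (95% interval −0.12 to 0.21; edgeR, adjusted p = 0.759), and it was −0.01 with Pdcd1f/f replicate 1 and Pdcd1f/fLysMcre replicate 2 both left out (edgeR, adjusted p = 0.933). With the GC and length offsets it was 0.16 (edgeR, adjusted p = 0.183). Among the 9 genes, the libraries of the genotypes did not overlap for 3 lower genes (Tgfb2, Tgfb3 and Tgfbr2) and 1 higher gene (Inhba), beside 27.2% of all genes tested (13.1% lower and 14.1% higher).

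**Figure D2:**
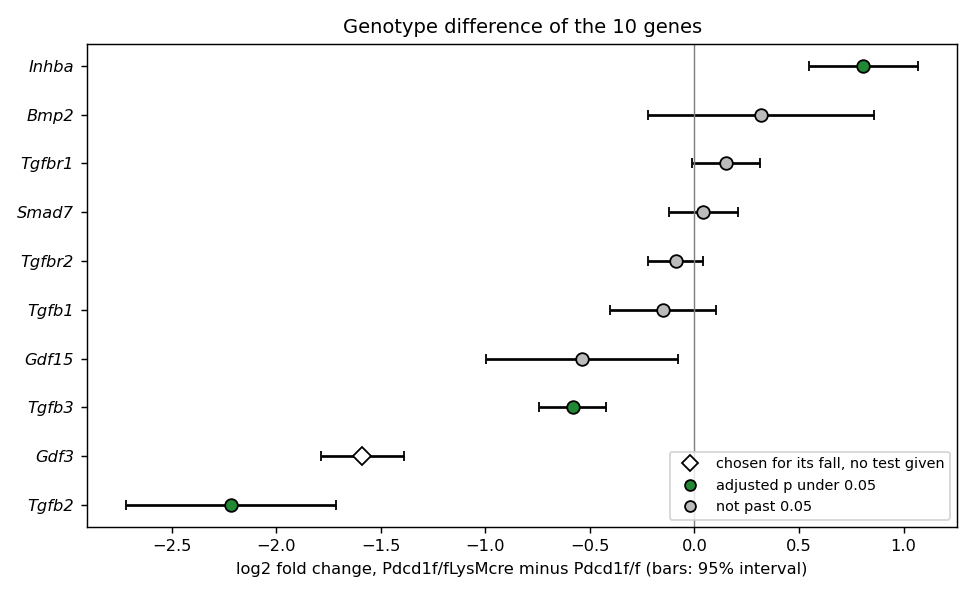
Fitted log2 fold change (horizontal axis, Pdcd1f/fLysMcre minus Pdcd1f/f) of the 10 genes with its 95% interval, green where the adjusted p of edgeR was under 0.05, grey where it was not, and an open diamond for Gdf3, for which no test is given. Gdf3 was picked by this fall, so its interval describes the spread of the libraries only and is not to be read as a test. Tgfb2 at −2.22 and Gdf3 at −1.59 lie far to the left and Inhba at 0.81 to the right, while the intervals of Tgfb1, Tgfbr1, Tgfbr2, Smad7 and Bmp2 include 0.

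On the TPM scale the 10 genes spanned a wide range of levels, and the order changed between the genotypes. In Pdcd1f/f TAMs Tgfb1 (115 ± 14.5) and Tgfbr1 (112 ± 11.2) stood highest and did not differ beyond their spread. Tgfbr2 (75.1 ± 1.86), Gdf3 (49.1 ± 2.53), Tgfb3 (36.0 ± 0.66), Smad7 (24.5 ± 0.91), Inhba (14.4 ± 2.87), Gdf15 (5.38 ± 0.74), Tgfb2 (2.52 ± 0.52) and Bmp2 (1.02 ± 0.25 TPM, SD, n = 3 each) followed, each with all libraries below those of the gene before. In Pdcd1f/fLysMcre TAMs Gdf3 (16.6 ± 1.41) lay below Smad7 (25.6 ± 1.43), Inhba (25.6 ± 1.11) and Tgfb3 (24.4 ± 1.23), and these 3 overlapped each other. Gdf15 (3.76 ± 0.94) came next, and Tgfb2 (0.55 ± 0.16) lay below Bmp2 (1.30 ± 0.23 TPM, SD, n = 3 each). Gdf3 thus had the second highest level of the 7 ligands in the controls and the fourth highest in Pdcd1f/fLysMcre TAMs. By the mean over all 6 libraries Tgfbr1 (119 TPM) stood above Tgfb1 (110.4 TPM). With the longest transcript as the gene length that pair turned round, with Tgfb1 at 166 and Tgfbr1 at 104 TPM, and the other 8 genes kept their rank.

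**Figure D3:**
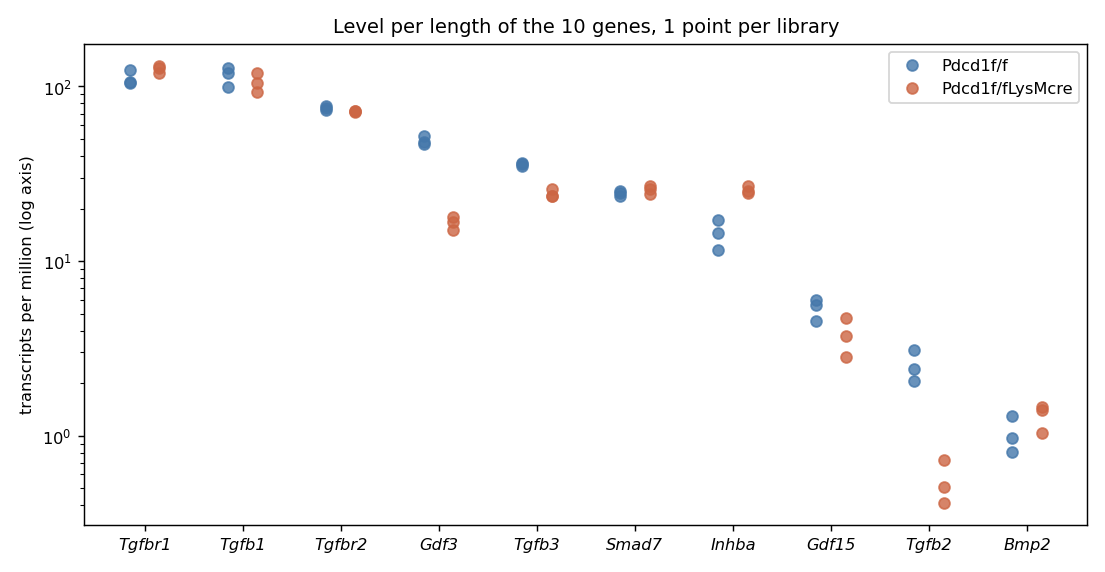
TPM (vertical log axis) of the 10 genes, 1 point per library, for Pdcd1f/f (blue) and Pdcd1f/fLysMcre (orange), ordered by the mean over all libraries. Levels run from Tgfbr1 and Tgfb1 near 100 TPM down to Tgfb2 and Bmp2, and the genotypes stand clearly apart for Gdf3, Tgfb3, Inhba and Tgfb2.

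The rest of the pathway was described with lists filled by role. Over the 110 further genes of these lists, 70 were tested and 5 were past the threshold, 3 higher and 2 lower (7.14%, beside 5.43% of all genes), with a median log2 fold change of −0.02 against −0.0026 for all genes. None of the 6 further ligands that were tested (Lefty1, Amh, Gdf9, Gdf11, Bmp4 and Bmp8a) passed in edgeR, DESeq2 or limma, and 0 of them had an unadjusted p under 0.05 in edgeR. They had at most 36 counts per library, and the other 20 further ligands were under the expression filter.

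Among 8 further receptors tested, Acvr2b, a type II receptor for activins and GDFs, fell from a mean of 125 ± 4.34 to one of 78.4 ± 7.12 normalized counts (SD, n = 3 each; edgeR, log2 fold change −0.67, standard error 0.16, adjusted p = 0.0354). Acvr1, a type I receptor for BMPs, had a log2 fold change of 0.26 and was not past the threshold (edgeR, adjusted p = 0.0574). It passed in DESeq2 (adjusted p = 0.0171) and with the GC and length offsets (edgeR, adjusted p = 0.0035). Of the 5 tested co-receptors Eng (endoglin), a TGF-β and BMP co-receptor known from endothelium, fell from a mean of 840.0 ± 57.9 to one of 601 ± 85.5 normalized counts (SD, n = 3 each; edgeR, log2 fold change −0.48, standard error 0.11, adjusted p = 0.0350). The log2 fold changes of all 5 co-receptors, Tgfbr3, Rgma, Rgmb and Bambi included, were below 0, with a median of −0.25. With the GC and length offsets edgeR called 2 of the 5 lower, where it called 18% of all genes. With Pdcd1f/f replicate 1 and Pdcd1f/fLysMcre replicate 2 both left out it called 3 lower, where it called 26.2% of all genes.

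Fst, which encodes follistatin, a secreted protein that binds and blocks activin A, was the one of 7 tested antagonists past the threshold in edgeR, beside 5.43% of all genes, and like Inhba it rose. It went from a mean of 226 ± 28.3 to one of 348 ± 28.7 normalized counts (SD, n = 3 each; edgeR, log2 fold change 0.62, standard error 0.13, adjusted p = 0.0187). Htra1, a secreted protease counted among the antagonists, had a log2 fold change of −0.28 (edgeR, adjusted p = 0.0590) and was called lower in DESeq2 (adjusted p = 0.0149) and with the GC and length offsets (edgeR, −0.17, adjusted p = 0.0232). Among 10 tested genes of latency and activation, Itgav, the αv subunit of integrins that free TGF-β from its latent complex, rose by 0.34 on the log2 scale (edgeR, standard error 0.07, adjusted p = 0.0192). Thbs1 (thrombospondin 1), by far the most abundant gene of that list per length, had a log2 fold change of 0.21 (edgeR, adjusted p = 0.0877) and passed in DESeq2 (0.0348) and with the GC and length offsets (edgeR, 0.0023). Bmp1, a protease that processes matrix and latent complex proteins, had one of −0.79 (edgeR, adjusted p = 0.0635) and was called lower in DESeq2 (adjusted p = 0.0136), with those offsets (edgeR, adjusted p = 0.0131) and with the replicate number as a block (edgeR, adjusted p = 0.0490). The offsets also gave a call for Ltbp1, a latent TGF-β binding protein, which was higher (edgeR, log2 fold change 0.25, adjusted p = 0.0459). The furin protease gene Furin, which cuts the precursors, had one of 0.01 (edgeR, adjusted p = 0.949).

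Inside the cell, none of the 6 tested SMAD genes other than Smad7 passed on all 6 libraries in edgeR without offsets, DESeq2 or limma, 0 of them had an unadjusted p under 0.05 in edgeR, and their log2 fold changes lay between 0.0052 and 0.17. Smad3, which carries the TGF-β and activin signal, passed with the GC and length offsets (edgeR, log2 fold change 0.22, adjusted p = 0.0089), and Smad5, of the BMP branch, passed with Pdcd1f/f replicate 1 and Pdcd1f/fLysMcre replicate 2 both left out (edgeR, 0.23, adjusted p = 0.0391), in fits that called 18% and 26.2% of all genes. Both were named after these values were seen. Smad4, the shared partner and the most abundant per length, had 0.04. Of 16 SMAD regulators Zfyve9, which encodes the adaptor SARA that presents SMADs to the receptor, rose from a mean of 775 ± 54.4 to one of 1006 ± 2.62 normalized counts (SD, n = 3 each; edgeR, log2 fold change 0.38, standard error 0.08, adjusted p = 0.0251). Skil, a nuclear repressor and the most abundant of them per length, had a log2 fold change of 0.09, which was −0.03 with the GC and length offsets. In DESeq2 Trim33, a ubiquitin ligase that binds SMADs, was called higher as well (log2 fold change 0.28, adjusted p = 0.0323), and with the offsets edgeR called Trim33 and Pmepa1 higher and Wwp1, another ubiquitin ligase, lower (−0.34, adjusted p = 1.3e-05).

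These 5 calls depended on which libraries entered. Without Pdcd1f/f replicate 1 there were 16 among the further pathway genes, and without Pdcd1f/f replicate 2, Pdcd1f/f replicate 3, Pdcd1f/fLysMcre replicate 1, Pdcd1f/fLysMcre replicate 2 and Pdcd1f/fLysMcre replicate 3 there were 0, 1, 0, 0 and 2. The share over all genes moved too and was 21.6%, 1.51%, 2.38%, 1.51%, 2.5% and 3.56% in the same fits. Acvr2b, Eng, Zfyve9, Itgav and Fst kept their direction in all 6 fits.

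Genes widely known to be induced by TGF-β or BMP through SMADs showed no call in edgeR's test. None of 15 such genes other than Smad7 was past the threshold in that test or in limma, 4 had an unadjusted p under 0.05 in edgeR, DESeq2 called 2 where it called 12.2% of all genes, and edgeR called 3 with the GC and length offsets, where it called 18% of all genes. Klf10 was among them in both, and Pmepa1, a feedback inhibitor of TGF-β signaling, in the fit with offsets (edgeR, log2 fold change 0.19, adjusted p = 0.0073). Their log2 fold changes ran from −0.53 for Junb to 0.19 for Klf10, with a median of −0.05. With the replicate number as a block Junb was called lower (edgeR, −0.51, adjusted p = 0.0318), where 7.1% of all genes were called. It was also called with offsets and block (edgeR, −0.33, adjusted p = 0.0185). The same held with Pdcd1f/f replicate 1 and Pdcd1f/fLysMcre replicate 2 both left out (edgeR, −0.57, adjusted p = 0.0141). These 2 fits called 18.6% and 26.2% of all genes, and 2 and 1 genes of this list higher. Tgfbi, an extracellular matrix gene named for its induction by TGF-β and the most abundant of them per length, had 176239 ± 13565 and 169762 ± 5219 normalized counts (SD, n = 3 each) and a log2 fold change of −0.05 (edgeR, adjusted p = 0.682), which was 0.01 with the same offsets.

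**Figure D4:**
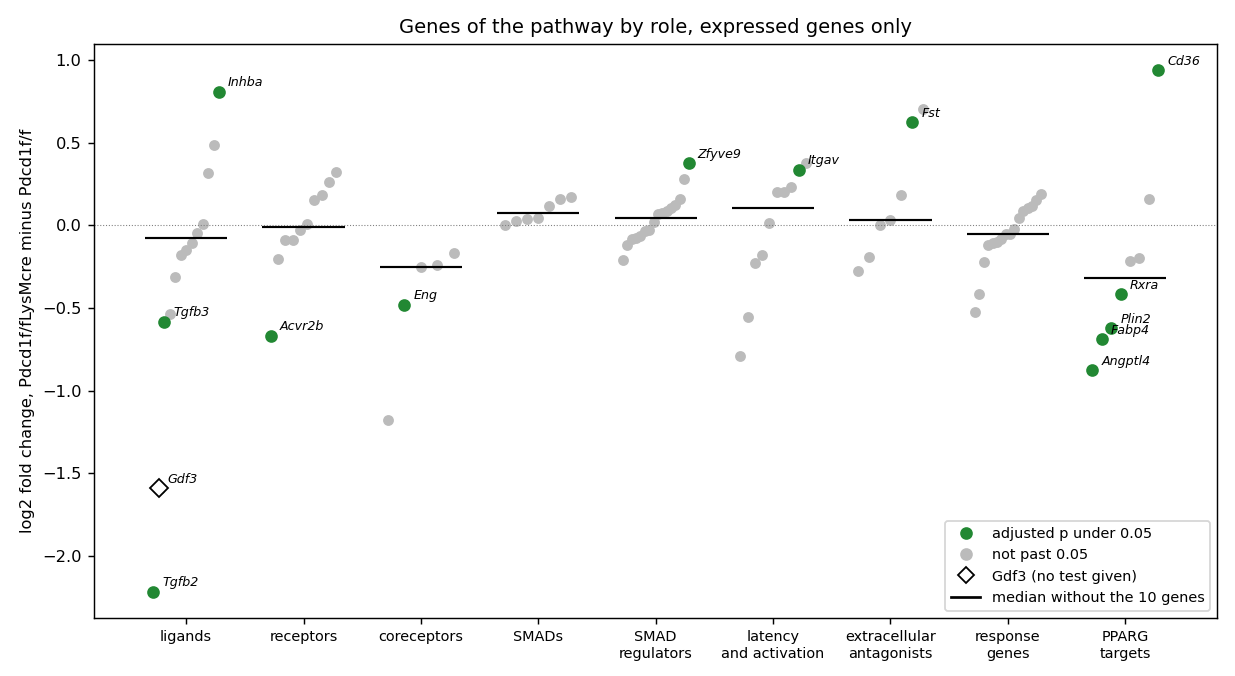
Log2 fold change (vertical axis, Pdcd1f/fLysMcre minus Pdcd1f/f) of the tested genes of each role, green and named where the adjusted p of edgeR was under 0.05, with an open diamond for Gdf3 and a line at the median of the genes other than the 10. Ligands spread from −2.22 to 0.81, while the SMADs lie between 0.0052 and 0.17 and the response genes between −0.53 and 0.19.

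Gdf3 is a reported target of the lipid-sensing receptor PPARγ in macrophages, so 9 genes of that receptor were listed as well, of which 8 were tested. Pparg itself had a log2 fold change of −0.20 (edgeR, adjusted p = 0.343), and its partner Rxra fell by 0.42 (edgeR, standard error 0.09, adjusted p = 0.0313). The lipid droplet coat gene Plin2 fell from a mean of 31386 ± 2291 to one of 20349 ± 863 normalized counts (SD, n = 3 each; edgeR, log2 fold change −0.62, adjusted p = 8.3e-04). Angptl4, a secreted lipase inhibitor, fell by 0.88 (edgeR, adjusted p = 0.0091) and Fabp4, a fatty acid carrier, by 0.69 (edgeR, adjusted p = 0.0203) on the log2 scale. The scavenger receptor Cd36 rose from a mean of 679 ± 15.6 to one of 1300.1 ± 155 normalized counts (SD, n = 3 each; edgeR, log2 fold change 0.94, adjusted p = 4.9e-04), so the list did not move one way. On all 6 libraries 5 of 8 were past the threshold, beside 5.43% of all genes. The list was chosen with results of these libraries known, so nothing is read from that share. The count was 7 without Pdcd1f/f replicate 1, where 21.6% of all genes passed, and 2 without Pdcd1f/f replicate 2 or without Pdcd1f/fLysMcre replicate 1, where 1.51% passed in each fit, and Plin2 and Cd36 were past it in all 6 such fits.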

How the data were processed

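Libraries were polyA-selected, stranded and sequenced as paired-end reads. The authors removed adapters with Cutadapt 2.5, aligned reads to GRCm38 with STAR 2.7.3a and counted them per Ensembl gene with featureCounts (Subread 1.6.2), and deposited raw counts. Strand and multi-mapping settings are not given in the sources used here. A second deposited table holds normalized signal for 16552 genes and equals the counts divided by 1 DESeq2 1.24.0 size factor per library. All sample columns were used.

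The genotype comparison took raw counts into edgeR 4.0.16 (R 4.3.3). Genes passed filterByExpr (minimum count 10, minimum total 15), TMM factors and glmQLFit with robust estimation were used, and the two-sided glmQLFTest was adjusted by Benjamini-Hochberg over 14469 genes with a threshold of 0.05. Standard errors come from the fold change and the F statistic. Positions and lengths came from GENCODE M21 (GRCm38), and all 172 list entries matched an ID. The 10 genes and the lists were chosen with earlier results of these data known. Named genes are the 10, Pdcd1, Lyz2, listed genes past the threshold, the most abundant of each list per length, the 5 most like Gdf3, the neighbors of Gdf3, the markers and sex-linked genes. Others named at a list (Acvr1, Furin, Junb, Klf10, Pmepa1, Smad3, Smad5, Htra1, Bmp1, Ltbp1, Trim33, Wwp1) and Ttll5 were chosen after their values were seen, and a few listed or neighboring genes are not reported here by name. Alternatives were other normalizations and filters, DESeq2 1.42.0, limma 3.58.1 on log2(value + 1), the replicate number as a block, loess offsets for GC content and gene length (span 0.5), each library left out, and Pdcd1f/f replicate 1 and Pdcd1f/fLysMcre replicate 2 left out together.

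Counts were also simulated with 1 spread shared by all genes and no GC effect, and only genes with a mean over 100 counts were changed. On these counts edgeR recovered 79 of 100 genes changed by 0.5 and 100 of 100 changed by 1 on the log2 scale. Among 14195 genes tested there were 9 false calls in all. The real libraries differ in GC content and in spread per gene, so these rates do not carry over to them.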

Additional observations from a re-analysis of the deposited data

How the results depend on the processing

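Tgfb2, Tgfb3 and Inhba kept their direction and were past 0.05 in all 17 alternative fits. With all 6 libraries and TMM they were also past 0.01, which Tgfb3 and Inhba were not in every fit (highest adjusted p of 0.0215 and 0.0302, with 1 library left out). The log2 fold change of Gdf3 stayed between −1.70 and −1.53, and was −1.70 with Pdcd1f/f replicate 1 and Pdcd1f/fLysMcre replicate 2 both left out. In that fit Smad7 turned to −0.0113, and Tgfb1 (−0.18, adjusted p = 0.0319) and Tgfbr1 (0.19, adjusted p = 0.0107 in edgeR) passed 0.05, while 21 further pathway genes and 3757 of all genes passed. Gdf15 passed with every gene that had a count (−0.54, adjusted p = 0.0489 in edgeR), where 11 pathway genes and 1951 of all genes passed. Leaving out 1 library gave between −0.73 and −0.37 for Gdf15, −0.27 and −0.0592 for Tgfb1, 0.12 and 0.21 for Tgfbr1, 0 and 16 pathway genes, and 222 and 3181 of all genes. DESeq2 gave 12 pathway genes with either adjustment and 1524 (Benjamini-Hochberg) or 1766 (Storey q-values) of all genes. Offsets for GC content and length gave 17 and 2604, and a threshold of 0.01 gave 0 and 283. The cause of these shifts was not tested. Skil and Tgfbi turned sign with the offsets (−0.0346 and 0.0127, and −0.0341 and 0.0131 with the replicate block), and Apobec1 lay between −0.0231 and 0.0162 when 1 library was dropped (4e-04, 0.0061 and 0.0162 in the 3 fits that turned). With the longest transcript as length 8 of 10 ranks were the same. Whether replicate numbers pair the libraries is not stated. Correlations of deviations were −0.013, −0.097 and 0.220 for the same numbers. The correlation was 0.236 for Pdcd1f/f replicate 1 with Pdcd1f/fLysMcre replicate 2, which both ran against GC content, so these values cannot decide on pairing. The replicate block gave 1027 of all genes, 7 pathway genes and no other call among the 10, and with offsets 2688 and 18. Depth limits Tgfb2, Gdf15 and Bmp2, with under 100 raw counts in some libraries.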
